A study of Mus musculus with 4 samples.

Results

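The genes described are those whose proteins coat, fuse, form or drain lipid droplets, followed in mouse liver: Cidea, Cideb, Cidec, Plin2, Plin4, Plin5, Fitm1, Fitm2, Pnpla2 and G0s2. They were chosen by symbol, and each of the 10 matched 1 of the 31253 features measured. Fresh-frozen liver was laid on 10x Visium slides, whose barcoded spots take up RNA from small groups of adjoining cells. The MASH group held 2 sections of liver after 16 weeks on the diet labelled WD (MASH-1 and MASH-2), and it was set against the MAFL group of 2 sections after 8 weeks on WD (MAFL-1 and MAFL-2). All sections therefore came from WD-fed mice, and disease stage and weeks of feeding cannot be told apart. Whether 2 sections of a group are from different animals is not stated, and the spread between these sections may therefore be only technical. The p-values rest on that spread and on variances shared across the genes tested, so a small p is not a measure of 1 gene's spread alone. Strain, sex and age are not stated in the labels either.

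The lipid droplet is a core of triglyceride and sterol ester under a single layer of phospholipid, and the proteins on that layer set how it grows and how it is drained. In hepatocytes of a fatty liver, perilipins cover the surface, CIDE proteins sit where droplets touch and pass lipid from the smaller to the larger droplet, and FIT proteins of the endoplasmic reticulum act where droplets form. Adipose triglyceride lipase starts the release of fatty acids, and its inhibitor G0S2 holds it back. The liver lobule is zoned from the portal tract, where blood enters, to the central vein, where it leaves.

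The 250 bases before an annotated transcript start (RefSeq, GRCm38.p6) are shown for Cidec, Plin4 and Fitm1, whose CPM was higher in both MASH sections and lower at the periportal side of all 4 sections, and for Plin2, whose groups overlapped. Cidea also met both conditions, and its promoter was not used here. Cidec has a pair of annotated starts and both windows are given. Capitals mark motifs found on either strand, spelled out after the sequences.
Cidec, first start, chr6:113435761-113436010, minus strand: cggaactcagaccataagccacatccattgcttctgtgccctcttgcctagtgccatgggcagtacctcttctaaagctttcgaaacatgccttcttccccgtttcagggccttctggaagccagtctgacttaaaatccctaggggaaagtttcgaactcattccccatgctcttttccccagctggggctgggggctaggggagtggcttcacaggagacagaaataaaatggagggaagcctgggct
Cidec, second start, chr6:113434765-113435014, minus strand: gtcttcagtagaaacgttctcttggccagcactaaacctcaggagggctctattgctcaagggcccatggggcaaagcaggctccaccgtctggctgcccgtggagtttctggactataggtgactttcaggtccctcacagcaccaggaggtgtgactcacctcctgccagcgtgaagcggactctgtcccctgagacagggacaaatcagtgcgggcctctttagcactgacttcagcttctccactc
Plin4, chr17:56109783-56110032, minus strand: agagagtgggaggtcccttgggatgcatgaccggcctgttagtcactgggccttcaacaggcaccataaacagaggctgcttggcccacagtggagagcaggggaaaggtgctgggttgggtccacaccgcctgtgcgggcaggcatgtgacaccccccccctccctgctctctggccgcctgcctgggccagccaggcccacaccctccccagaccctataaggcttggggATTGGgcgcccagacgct
Fitm1, chr14:55575424-55575673, plus strand: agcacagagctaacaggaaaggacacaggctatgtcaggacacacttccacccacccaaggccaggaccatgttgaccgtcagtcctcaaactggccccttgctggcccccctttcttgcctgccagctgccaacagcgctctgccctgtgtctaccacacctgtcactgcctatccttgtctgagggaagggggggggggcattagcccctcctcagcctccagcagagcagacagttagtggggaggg
Plin2, chr4:86670060-86670309, minus strand: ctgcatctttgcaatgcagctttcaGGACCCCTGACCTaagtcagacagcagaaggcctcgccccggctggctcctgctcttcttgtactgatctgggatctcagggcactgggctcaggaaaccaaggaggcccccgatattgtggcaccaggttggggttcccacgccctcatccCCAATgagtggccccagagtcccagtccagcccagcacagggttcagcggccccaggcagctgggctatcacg

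The motif of PPAR with its partner RXR, searched as the direct repeat AGGTCANAGGTCA with at most 2 mismatches, was found in 3.24% of the 32851 promoter windows of the table and, among the members with a printable window, only in Plin2 (first base 225 bases before the start). The TCF motif CTTTGA, in 13.8% of all windows, was in none of them. The CCAAT box CCAAT, in 33.8% of all windows, was in Plin2, Plin4 and Plin5. The TATA box TATAAA (12.4% of all windows) was in Cideb, and the GC box GGGCGG (32.7% of all windows) was in G0s2, Fitm2, Pnpla2, Cideb and Plin5. No base belonged to matches of 2 motifs in these windows. No searched motif was present in either Cidec window or in the Fitm1 window, which says only that these letters are not there. Promoters of 9 of the 10 members were read.

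Plin4 and Plin5 are neighbours on chromosome 17, 1649 bases apart, and Cideb and Fitm1 lie 177100 bases apart on chromosome 14. In the annotation Cideb overlaps Nop9 and Ltb4r2, Cidec overlaps Gm52871, Plin4 overlaps Hdgfl2, Plin2 overlaps Gm12551, Fitm2 overlaps 2310001K24Rik and Cidea overlaps B430212C06Rik. How reads over such overlaps were assigned was not tested, and the levels of these genes are uncertain to that extent.

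The kept spots numbered 2467 and 1862 in MASH sections, against 2036 and 1881 in MAFL sections, with 63808230 and 44581221 UMIs against 32249289 and 38126800 UMIs. Adipocyte-defining Adipoq had 4 and 1 UMIs in MASH sections against 0 and 1 in MAFL sections, Lep had 0 in all 4, and Plin1 had at most 1. Of the 6 skeletal muscle markers 4 were at 0 in every section. The 8 macrophage genes together reached 594 and 579 CPM (UMIs scaled to a common total per section or spot class) in MASH sections, against 250.5 and 305 CPM in MAFL sections, and the 10 genes of lipid-associated macrophages (LAM) reached 141 and 337 CPM against 54.3 and 42.8 CPM. Hepatocyte markers summed to 81208 and 84960 CPM in MASH sections and 80030 and 79639 CPM in MAFL sections. The part of these other cells in the results below was not tested, and in such sections a larger share of a cell type and more RNA per cell cannot be told apart.

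In whole sections, 5 members stood above both MAFL sections in both MASH sections: the 3 CIDE genes, Plin4 and Fitm1. Of all 13593 genes tested, 34.1% were also above in both MASH sections. None of the 10 members passed the test (edgeR quasi-likelihood test, Benjamini-Hochberg adjusted p under 0.05), which 62 genes or 0.456% of all passed, and 2604 genes had an unadjusted p below 0.05. With DESeq2 on the same counts 586 of 13065 genes passed, among them 5 members, the same 5 that stood higher in both MASH sections. The other 5 members, Plin2, Plin5, Fitm2, Pnpla2 and G0s2, had overlapping groups.

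Cidea, a CIDE protein best known from brown fat and from steatotic liver, had 49.8 and 13.7 CPM in MASH sections, against 0.620 and 0.420 CPM in MAFL sections. The MAFL values rest on 20 and 16 UMIs, and UMIs of Cidea were in 59.7 and 24.3% of spots of the MASH sections against 0.982 and 0.797% of spots of the MAFL sections. The groups did not overlap, and the 2 MASH sections lay far from each other. The fitted log2 fold change was 5.88 (SE 1.02) with an edgeR adjusted p of 0.135. Cfd, a gene highly expressed in fat tissue, was also highest in MASH-1, at 387 and 26.1 CPM in MASH sections against 6.45 and 43.0 CPM in MAFL sections. Its groups overlapped.

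Cidec, the CIDE protein that enlarges droplets in fat cells and in steatotic hepatocytes, had 73.7 and 83.8 CPM in MASH sections, against 26.8 and 11.8 CPM in MAFL sections. The averages were 78.7 ± 7.1 CPM in MASH sections and 19.3 ± 10.6 CPM in MAFL sections (SD, n = 2 each), and both MASH sections lay far above both MAFL sections. UMIs of Cidec were in 78.0 and 77.9% of spots of the MASH sections against 33.2 and 21.4% of spots of the MAFL sections. The fitted log2 fold change was 1.94 (SE 0.38), edgeR adjusted p = 0.110. Cideb, the CIDE protein of normal hepatocytes that also works in lipoprotein loading, had 135 and 186 CPM in MASH sections, against 96.6 and 92.4 CPM in MAFL sections. Its groups were separate by a smaller margin, with a log2 fold change of 0.65 (SE 0.18), adjusted p = 0.139.

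Plin4, a perilipin of large amphipathic repeats that coats nascent droplets, had 29.2 and 24.7 CPM in MASH sections, against 7.35 and 12.4 CPM in MAFL sections. The log2 fold change was 1.34 (SE 0.29), adjusted p = 0.109. Fitm1, a FIT protein known best from skeletal muscle, had 180.3 and 96.9 CPM in MASH sections, against 48.7 and 71.0 CPM in MAFL sections, a log2 fold change of 1.12 (SE 0.39) with adjusted p = 0.231. Neither gene's groups overlapped. Of the 6 skeletal muscle markers, the tissue where Fitm1 is best known, the sum was 0.893 and 0.673 CPM in MASH sections against 1.24 and 0.656 CPM in MAFL sections.

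Plin2, the perilipin that covers droplets in most tissues, had 396 and 519 CPM in MASH sections, against 644 and 369 CPM in MAFL sections. Plin5, the perilipin that links droplets and mitochondria in oxidative tissue, had 60.4 and 85.4 CPM against 95.5 and 65.8 CPM in MAFL sections. Both MASH sections lay between the MAFL sections for Plin2, the Plin5 groups overlapped, and the edgeR adjusted p were 0.646 for Plin2 and 0.557 for Plin5. Fitm2, the FIT protein of most tissues, had 91.96 and 91.97 CPM in MASH sections and 112 and 91.9 CPM in MAFL sections. Pnpla2, adipose triglyceride lipase, had 111 and 97.1 CPM against 107.0 and 133 CPM, and G0s2, its inhibitor, had 219 and 285 CPM against 288 and 247 CPM. The groups overlapped for each. The log2 fold change was -0.25 (SE 0.16) for Fitm2, -0.31 (SE 0.20) for Pnpla2 and -0.19 (SE 0.18) for G0s2, with edgeR adjusted p of 0.448, 0.429 and 0.593.

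**Figure D1:**
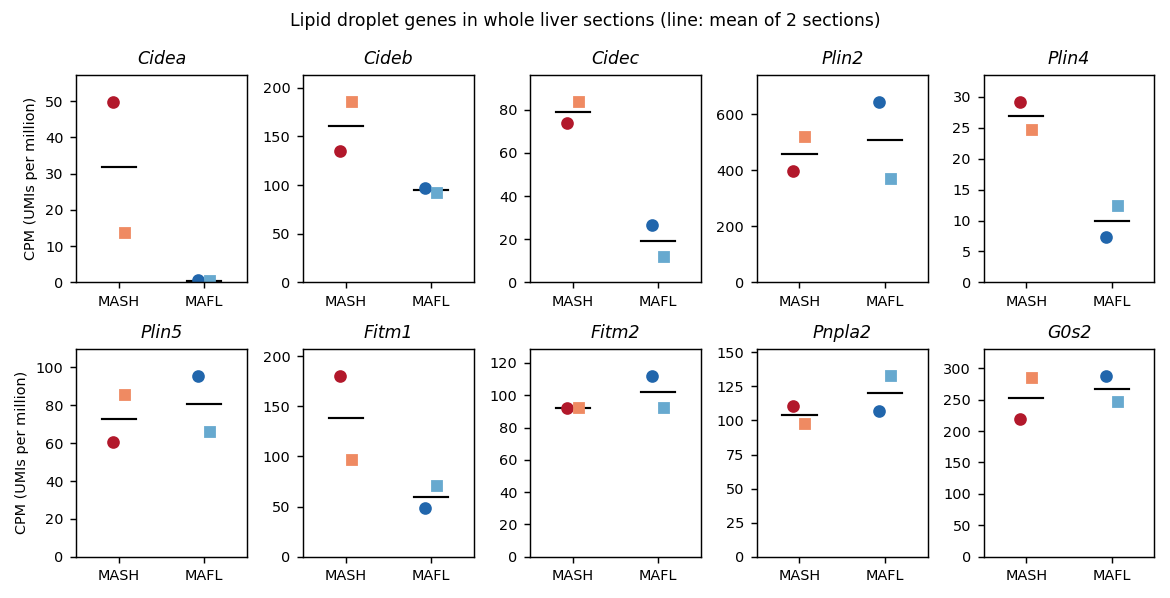
CPM of each member in whole liver sections, with MASH on the left and MAFL on the right of each panel. Circles are section 1 and squares section 2 of each group, and the black line is the mean of the 2 sections. Cidea, Cideb, Cidec, Plin4 and Fitm1 sit higher in both MASH sections, and the other 5 overlap.

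The regulators and partner genes of droplet storage were followed beside the members. Pparg, the nuclear receptor that drives fat storage, rose in MASH sections, with 5.80 and 9.29 CPM against 1.43 and 1.52 CPM in MAFL sections (log2 fold change 2.23, SE 0.27, edgeR adjusted p = 0.0298). It was the only one of the 9 transcriptional regulators to pass. Its call was lost without MAFL-1 (adjusted p = 0.132), without MASH-2 (0.0696) and with the replicate block (0.118). Pparg rose too in each zone, by log2 1.76 pericentrally, 2.58 in the middle and 3.39 periportally (adjusted p = 0.0391, 0.0182 and 0.0416), and these calls too were lost in 1 to 3 of 9 alternatives, among them without MAFL-1 pericentrally (0.236) and in the middle (0.0837), without MAFL-2 pericentrally (0.0592) and with the replicate block periportally (0.0871). The periportal fold of Pparg rests on very low MAFL values, 0.826 and 0.209 CPM, against 3.87 and 7.07 CPM in MASH sections. None of 13 other lipid droplet genes, 11 triglyceride synthesis genes, 7 VLDL assembly genes and 15 PPAR targets tested passed in whole sections. Closest to the threshold were Fabp4, a fatty acid carrier (log2 0.96, adjusted p = 0.0521), Mogat1, an acyltransferase (log2 1.60, adjusted p = 0.0632), Cd36, a fatty acid transporter (log2 1.21, adjusted p = 0.0726), and Lpin1, a phosphatidate phosphatase (log2 1.18, adjusted p = 0.0752). In the periportal zone Cd36 (log2 1.41, adjusted p = 0.0248) and Lpin1 (log2 1.30, adjusted p = 0.0324) rose, and Fabp4 rose in the middle zone (log2 1.13, adjusted p = 0.0346). Without MAFL-1 none of these 3 passed (0.0535, 0.0692 and 0.193), nor did Lpin1 without MASH-2 (0.0810) or Fabp4 without MAFL-2 (0.112).

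The zone of each spot was ranked within its section by the log2 ratio of Cyp2f2 plus 1 to Cyp2e1 plus 1, a periportal and a pericentral hepatocyte enzyme, and cut into 3 equal classes, the periportal, middle and pericentral zone. Held-out markers behaved by zone: all 10 periportal hepatocyte genes rose in the periportal zone over the pericentral zone, and all 10 pericentral hepatocyte genes fell (Cyp2a5 -3.03, Glul -2.20 on the log2 scale), in a fit with the section as a block. Of the 10 members 5 fell in the periportal zone and none rose, where 19.0% of the 12496 genes tested passed in either direction. Their median log2 ratio was -0.34, beside 0.01 over all genes tested. Other cell markers were zoned as well: 5 of 6 endothelial and 4 of 8 stellate cell and fibroblast genes fell periportally, and 5 of 5 cholangiocyte and 4 of 6 general hepatocyte genes rose. Their part in the members' results was not tested.

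Cidea had the largest fitted ratio of the 10. In MASH-1 it had 12.9 CPM periportally and 94.9 CPM pericentrally, and in MASH-2 it had 3.44 and 32.9 CPM in the same order. In MAFL sections the periportal zone held 1 and 4 UMIs and the pericentral zone 18 and 8 UMIs, too few for a ratio per section. The fitted log2 ratio over all sections was -2.95 (SE 0.11, adjusted p = 5.26e-21), and it rests mostly on the MASH sections, which hold most of the UMIs. Cidea was lower periportally in 4 of 4 sections, in the MAFL sections on these few UMIs. The sum of 8 adipocyte genes, mostly Cfd, ran the same way, with 124 and 9.68 CPM periportally against 729 and 72.2 CPM pericentrally in MASH sections, and 5.78 and 19.7 CPM against 19.2 and 88.4 CPM in MAFL sections. Its part in the Cidea result was not tested, and Adipoq and Lep were at or near 0 as given above.

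Fitm1 was lower periportally in every section. In MASH sections it had 74.9 and 43.7 CPM periportally, against 295 and 196 CPM pericentrally, and in MAFL sections 18.9 and 37.4 CPM periportally, against 91.1 and 118 CPM pericentrally. The log2 ratio was -1.97 (SE 0.07, adjusted p = 1.73e-15). Plin4 followed with 17.7 and 15.6 CPM periportally against 40.6 and 39.0 CPM pericentrally in MASH sections, and with 4.96 and 8.80 CPM against 10.4 and 17.3 CPM in MAFL sections. Its log2 ratio was -1.14 (SE 0.08, adjusted p = 1.22e-13), and again 4 of 4 sections ran the same way.

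Fitm2 fell periportally by a smaller amount, log2 -0.48 (SE 0.05, adjusted p = 1.47e-08), with 74.3 and 74.8 CPM periportally against 111 and 117 CPM pericentrally in MASH sections, and with 94.1 and 80.9 CPM against 129 and 104 CPM in MAFL sections. Pnpla2 fell by log2 -0.21 (SE 0.05, adjusted p = 0.00290), with 103 and 88.5 CPM periportally against 117 and 115 CPM pericentrally in MASH sections, and 98.3 and 124 CPM against 116 and 140.04 CPM in MAFL sections. All 4 sections were lower periportally for both genes. The calls of Cidea, Fitm1, Plin4, Fitm2 and Pnpla2 held in 10 of 10 alternatives each. Cideb (-0.10), Plin2 (0.04), Plin5 (-0.08) and G0s2 (-0.18) did not pass, with adjusted p between 0.234 and 0.704. Cidec did not pass over all sections (log2 -1.01, SE 0.29, adjusted p = 0.133), though it was lower periportally in 4 of 4 sections, by unequal amounts.

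**Figure D2:**
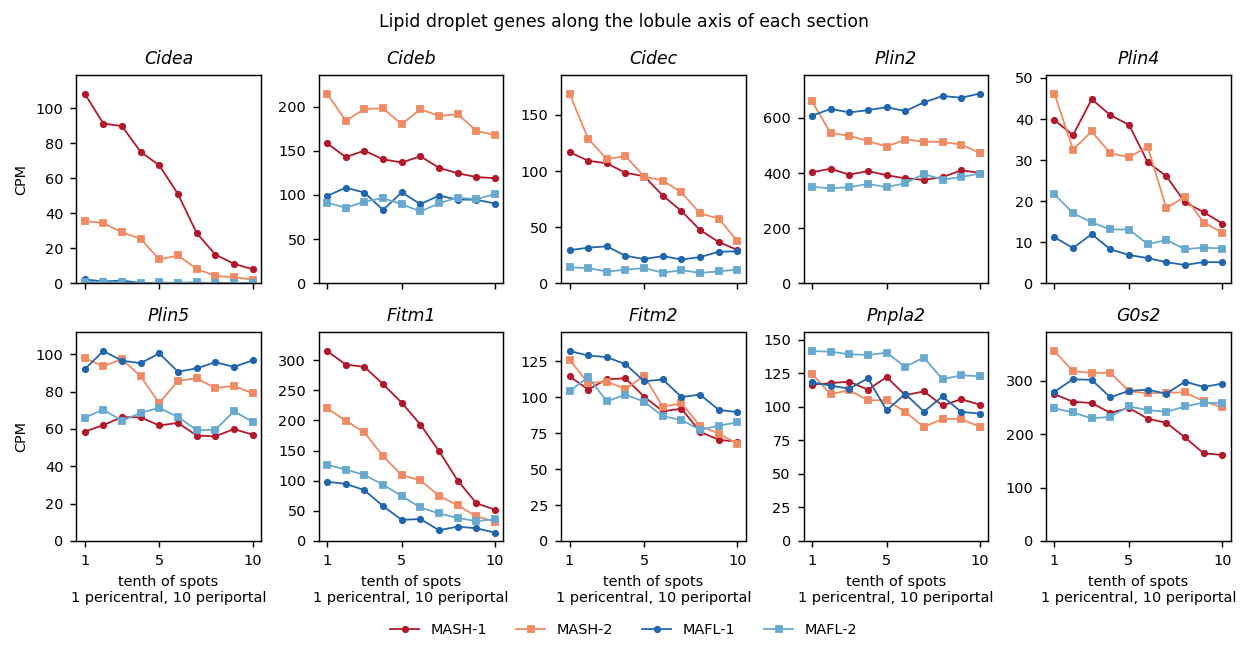
CPM of each member along 10 bins of the spots of each section, from 1 (pericentral) to 10 (periportal), with a line per section and MASH sections in reds and MAFL sections in blues. Cidec declines steeply in MASH-1 and MASH-2 and lies near level in MAFL-1 and MAFL-2, and Fitm1 and Plin4 decline in all 4 sections.

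Cidec was the member whose zoning differed between the groups. In MASH sections it had 40.3 and 52.3 CPM periportally, 83.3 and 93.3 CPM in the middle and 110.0 and 137 CPM pericentrally. In MAFL sections it had 25.7 and 10.8 CPM periportally, 23.7 and 11.9 CPM in the middle and 30.8 and 13.0 CPM pericentrally. The log2 ratio of periportal to pericentral CPM was -1.45 and -1.38 in MASH sections, against -0.26 and -0.26 in MAFL sections. The groups did not overlap, and within each group the sections lay close together.

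The change of the zone ratio was tested as an interaction of zone with group. Cidec fell by 1.11 on the log2 scale (SE 0.13, edgeR adjusted p = 2.89e-06), the only 1 of 10 members to pass, where 0.392% of 12496 genes passed. The call held in all 10 alternatives, with values between -1.49 and -0.83 and adjusted p between 3.2e-12 and 0.0179. Along 10 bins of equal spot number, Cidec ran at 29.9 CPM in the most periportal and 117 CPM in the most pericentral bin of MASH-1, and at 37.6 and 169 CPM in MASH-2. In MAFL-1 the same ends were at 28.6 and 29.7 CPM and in MAFL-2 at 12.4 and 14.3 CPM. In the most periportal bin the MASH-1 value was thus close to that of MAFL-1.

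Some held-out markers had a steeper zone contrast in MASH sections: 4 of 10 periportal genes rose and 3 of 10 pericentral genes fell in the interaction (Glul -0.81, Oat -0.84 and Gulo -0.65 on the log2 scale), with a median of -0.73 over the 10 pericentral genes. Spots of the periportal zone were also deeper than those of the pericentral zone in MASH sections, with medians of 33004.5 and 34028 UMIs against 22911 and 15755, and in MAFL sections the medians were 15499 and 22462 UMIs against 15631 and 18560. When spots were ranked within 5 bins of total UMIs, the interaction for Glul (0.07) and Oat (0.02) was no longer negative and that of Gulo was near 0, while that of Cidec was -0.83 (adjusted p = 0.0179). The part of a steeper zone contrast in the Cidec result beyond this was not tested.

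G0s2 came nearest to the threshold after Cidec. It had 176 and 262 CPM periportally against 264 and 331 CPM pericentrally in MASH sections, and 292 and 255 CPM against 293 and 240.1 CPM in MAFL sections. The log2 ratio was -0.58 and -0.34 in MASH sections, against -0.01 and 0.09 in MAFL sections, and the interaction was -0.45 (SE 0.11, adjusted p = 0.0710). It passed with library totals alone (adjusted p = 0.0027), with no filter on low counts (0.0485) and without MASH-2 (3.55e-08), and its adjusted p was highest without MAFL-2 (0.859). For 7 of the 10 members both MASH sections had a lower zone ratio than both MAFL sections, as did 24.1% of all genes tested. Among those 7, Plin2 had ratios of -0.03 and -0.23 in MASH sections, against 0.13 and 0.15 in MAFL sections, and its interaction did not pass (-0.22, adjusted p = 0.679).

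Of the other genes, Mgll, the monoacylglycerol lipase, had an interaction of -0.49 (adjusted p = 0.00706) and Srebf1, a regulator of lipogenesis, -0.44 (adjusted p = 0.0359), so both fell, and Cd36 rose by 0.44 (adjusted p = 0.0412). These calls depended on the settings: Mgll passed in 6, Srebf1 in 4 and Cd36 in 5 of 10 alternatives. All 3 were lost with DESeq2, with spots ranked within bins of total UMIs and without either MAFL section, where adjusted p lay between 0.264 and 0.945.

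**Figure D3:**
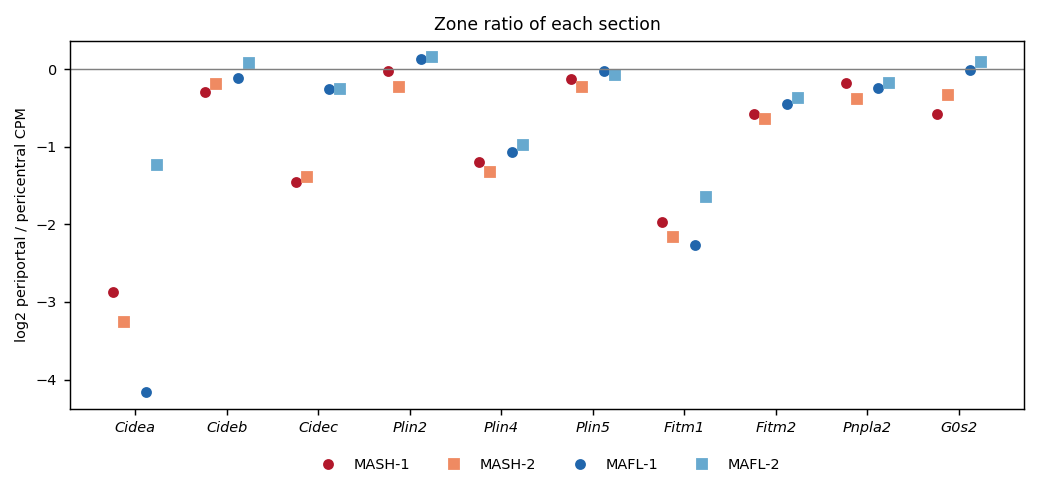
Log2 ratio of periportal to pericentral CPM for each member and section, MASH sections (reds) left of MAFL sections (blues). Cidec sits at -1.45 and -1.38 in MASH sections and at -0.26 in both MAFL sections, and the MAFL points of Cidea rest on 1 and 4 periportal UMIs.

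Within zones MASH and MAFL were compared again. A pass in a single zone is not a test of a difference between zones, which only the interaction above addressed. In the middle zone Cidec rose in MASH sections by log2 2.23 (SE 0.30, adjusted p = 0.0423), the only member past the threshold, where 0.453% of 11913 genes passed. In simulated counts 19.4% of the calls of the middle-zone fit were false. The Cidec call was lost with library totals alone (0.0657), without MASH-1 (0.0682) and without MASH-2 (0.166). In the pericentral zone no member passed, where 0.602% of 11802 genes did and 2076 had an unadjusted p below 0.05. With DESeq2 265 of 11600 genes passed there, among them 5 members. In the edgeR fit Plin4 came nearest with log2 1.39 (SE 0.25, adjusted p = 0.0575), followed by Cidec with log2 2.37 (SE 0.40, adjusted p = 0.0903). In the periportal zone no member passed either, where 1.28% of 12480 genes did and 2192 had an unadjusted p below 0.05. With DESeq2 330 of 12940 genes passed there, among them 3 members. In the edgeR fit of this zone Cidec was at log2 1.28 (SE 0.41, adjusted p = 0.220) and Plin4 at 1.18 (SE 0.27, adjusted p = 0.0870).

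**Figure D4:**
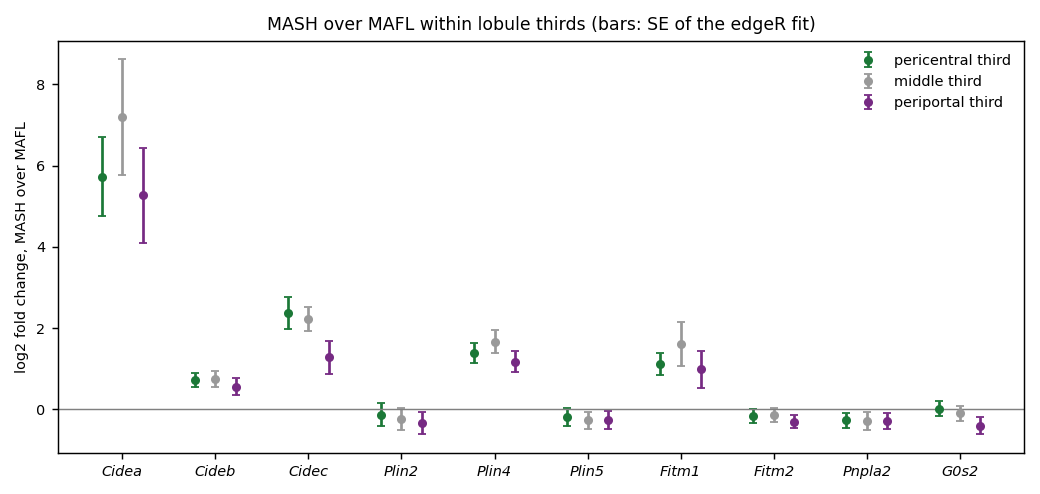
Log2 fold change of MASH over MAFL for each member in the pericentral, middle and periportal zone. Bars are the SE worked back from the F statistic of the edgeR test. Cidec sits at 2.37 pericentrally, 2.23 in the middle and 1.28 periportally, Plin4 and Fitm1 stay above 0 in all zones, and Plin2, Plin5, Fitm2 and Pnpla2 stay below 0.

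Other zone-dependent genes of the pathway ran in both directions. Of 13 other lipid droplet genes 2 rose and 4 fell periportally, among them Hsd17b13, a droplet enzyme on the periportal marker list too (log2 1.64, adjusted p = 4.11e-13), Acsl3, an acyl-CoA synthetase of nascent droplets (0.39), Hsd17b11 (-0.40) and Bscl2, the seipin gene that organizes droplet formation (-0.34). Of 11 triglyceride synthesis genes 1 rose and 4 fell, with Mogat1 at -1.24 and Agpat2, an acyltransferase, at -0.40. Of 7 VLDL assembly genes 2 rose, among them Smlr1 at 0.27. Of 9 regulators 2 rose and 3 fell, with Ppargc1a at 0.53 (past the threshold in 7 of 10 alternatives, and not without MASH-1 at 0.0691), Pparg at -1.13 (adjusted p = 0.0254, past the threshold in 6 of 10 alternatives, and not without MAFL-1 at 0.149 or without MASH-1 at 0.152) and Mlxipl at -0.20. Of 15 PPAR targets 1 rose and 8 fell, with Vldlr at -2.21 and Acot1 at -0.90.

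The title of the study concerns Thrsp-positive hepatocytes and lipid-associated macrophages, so the members were set against spots rich in each. LAM-rich spots were the top 10% and LAM-poor spots the bottom 50% by the share of 10 LAM genes, ranked in 5 bins of total UMIs inside each zone. The names refer to these genes, and whether LAM cells lay in the spots was not tested. In MASH sections the 10 genes had 460 and 1162 CPM in LAM-rich spots against 56.2 and 134 CPM in LAM-poor spots. In MAFL sections they had only 194 and 152 CPM against 7.94 and 5.86 CPM. Of the 10 members 4 fell in LAM-rich spots, where 9.97% of 12483 genes passed: Cideb by log2 -0.24 (SE 0.05, adjusted p = 0.00522), Fitm1 by -0.23 (SE 0.05, adjusted p = 0.00968), G0s2 by -0.20 (SE 0.05, adjusted p = 0.0196) and Fitm2 by -0.19 (SE 0.06, adjusted p = 0.0365). Under library totals alone none of the 4 passed, and the values shrank to between -0.12 and -0.07. That scaling put the median of all genes at log2 0.10, beside -0.02 with TMM. Without MASH-1 none of the 4 passed (adjusted p between 0.0950 and 0.242), without MAFL-1 Fitm2 (0.162) and G0s2 (0.0981) were lost, and without MAFL-2 Fitm1 (0.0545) and Fitm2 (0.270). On plain CPM, Cideb had 120.0 and 182 CPM in LAM-rich spots against 138 and 184 CPM in LAM-poor spots of the MASH sections, and 90.4 and 82.7 CPM against 96.9 and 93.5 CPM in the MAFL sections. Fitm1 had 178 and 88.9 CPM in LAM-rich spots against 183 and 97.5 CPM in LAM-poor spots of the MASH sections, and 45.5 and 63.8 CPM against 50.5 and 71.4 CPM in the MAFL sections. G0s2 had 213 and 267 CPM against 221 and 291 CPM in the MASH sections, and 273 and 241 CPM against 294 and 245 CPM in the MAFL sections. Fitm2 had 94.5 and 97.2 CPM in LAM-rich spots against 92.2 and 91.9 CPM in LAM-poor spots of the MASH sections, and 99.9 and 79.2 CPM against 112 and 95.5 CPM in the MAFL sections. On this scale Cideb, Fitm1 and G0s2 were lower in LAM-rich spots of all 4 sections, while Fitm2 was lower in both MAFL sections (log2 -0.16 and -0.27) and slightly higher in both MASH sections (log2 0.04 and 0.08).

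Cell type markers moved with the same spots. All 5 cholangiocyte genes rose in LAM-rich spots (median log2 1.24, Epcam adjusted p = 0.000213), 3 of 8 stellate cell and fibroblast genes rose, and 4 of 6 hepatocyte genes fell (median log2 -0.20, Alb -0.22). Their part in the results of the members was not tested. Among other pathway genes, Fabp4 was higher in LAM-rich spots by log2 0.62, with values between 0.54 and 0.74 under alternatives. Mgll (-0.24) and Acot1 (-0.29) were lower. The part of such spots in the rise of Fabp4 in MASH sections was not tested. MASH-2 stood apart, with a log2 ratio of 0.53 for Cidec, 0.46 for Plin2 and 0.31 for Plin4 in its LAM-rich spots. Over all sections none of these 3 passed. In edgeR's test of the difference between the groups 0 of 10 members passed, where 0.713% of 12483 genes did and 1056 had an unadjusted p below 0.05, and DESeq2 called 0 members. Plin2 had the smallest p of the 10 (log2 0.23, SE 0.10, unadjusted p = 0.0223, adjusted p = 0.464).

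Thrsp encodes a lipogenic protein of hepatocytes. Thrsp-rich and Thrsp-poor spots held the highest and the lowest of 3 equal groups by share of Thrsp UMIs, ranked in 5 bins of total UMIs inside each zone. Thrsp itself had 498 and 722 CPM in Thrsp-rich spots against 205 and 302 CPM in Thrsp-poor spots of the MASH sections. In MAFL sections it had 82.0 and 219 CPM against 0 and 41.6 CPM. Spots were ranked within each section, so a class does not stand for the same Thrsp level in both groups. The 4 haemoglobin genes fell in Thrsp-rich spots (median log2 -0.20), and their part in the results was not tested. Of the 10 members 2 rose in Thrsp-rich spots, where 0.508% of 12588 genes passed. Cidea rose by log2 0.37 (SE 0.07, adjusted p = 0.000354), with 56.1 and 15.6 CPM in Thrsp-rich spots against 43.7 and 11.4 CPM in Thrsp-poor spots of the MASH sections, and 4 and 6 UMIs against 7 and 4 in the MAFL sections. Cidec rose by log2 0.23 (SE 0.04, adjusted p = 0.00129), with 80.8 and 94.2 CPM in Thrsp-rich spots against 67.9 and 74.2 CPM in Thrsp-poor spots of the MASH sections, and 25.1 and 12.2 CPM against 26.6 and 11.4 CPM in the MAFL sections. The MASH sections were thus higher for Cidec by log2 0.25 and 0.34, and the MAFL sections lay at -0.09 and 0.09. Fitm1 was just outside (log2 0.13, adjusted p = 0.0577), and with DESeq2 no member passed. Without MASH-1 neither Cidea (adjusted p = 0.570) nor Cidec (0.323) passed, and Cidec did not without MASH-2 (0.183).

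In edgeR's test of the difference between the groups 0 of 10 members passed, where 0.0874% of 12588 genes did and 760 had an unadjusted p below 0.05, and DESeq2 called 0 members. The smallest unadjusted p among them were 0.00137 for Fitm1, 0.00308 for G0s2 and 0.00430 for Cidec, with adjusted p of 0.455, 0.519 and 0.600.

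**Figure D5:**
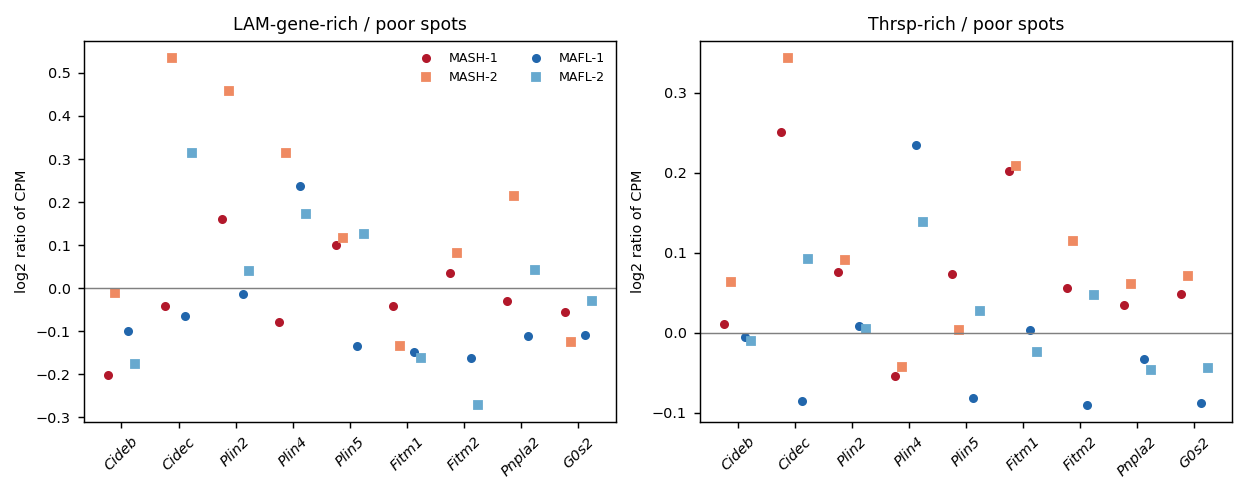
Log2 ratio of CPM in LAM-rich over LAM-poor spots (left) and in Thrsp-rich over Thrsp-poor spots (right), per section, MASH (reds) left of MAFL (blues). Cidea is left out because its MAFL counts are few, between 1 and 13 UMIs per spot class. Cidec in Thrsp-rich spots sits at 0.25 and 0.34 in MASH sections and at -0.09 and 0.09 in MAFL sections.

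Genes whose profile was most like that of each member were found over the 12 section zones among 4176 genes of at least 20 CPM on average. The measure was the smallest root mean square difference of centred log2 of CPM plus 1. The added 1 weighs on low values such as those of Cidea in MAFL sections. For Cidec these were Lgals1 (0.48), Bcl6 (0.51) and H2-Eb1 (0.56), against a root mean square of 1.197 of Cidec itself. Serpina7 (0.98), Cidec (1.34) and Lgals1 (1.37) were nearest to Cidea, whose own value was 2.29. For Plin4 they were Cd36 (0.28), Mme (0.28) and Car3 (0.34), and for Fitm1 Cyp2c38 (0.31), Lect2 (0.33) and Rgn (0.36). For Cideb they were Txn1, Sap18 and Arpc2, for Plin2 Hsdl2, Slc11a2 and Rbpms, and for Plin5 Hsp90ab1, Ssr1 and Lmna. For Fitm2 they were Pard3, Stab1 and Dnajb2, for Pnpla2 Pex16, Emc10 and Hint2, and for G0s2 Slc22a5, Osbpl9 and Pex14. Lgals1 rose in MASH sections as a whole (log2 1.97, adjusted p = 0.00865), fell periportally (-0.72), and its zone change was -0.07 (adjusted p = 0.972). Bcl6 (log2 1.74) and Serpina7 (log2 2.59) rose in MASH sections too, at the same adjusted p of 0.00865, and their zone changes were -0.03 (adjusted p = 0.995) and 0.28 (adjusted p = 0.870). The 3 calls were lost in 1 of 10 alternatives each, with adjusted p of up to 0.0901.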

How the data were processed

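Per the file headers, counts were made by the authors with Space Ranger 1.2.2, and per the submitters' processing notes on the mm10 genome: whole UMIs of 31253 features per spot. Counting strand is not given in the sources used here. Spots under 500 UMIs were left out (3 each in MAFL-1 and MASH-1), and UMIs were summed per section, zone or spot class. edgeR 4.0.16 (TMM, filterByExpr, robust quasi-likelihood, Benjamini-Hochberg over all genes tested, 0.05) in R 4.3.3 gave the tests, with DESeq2 1.42.0 beside it. Each SE was worked back from the edgeR test, as the size of the log2 fold change over the square root of its F statistic. Zone and spot-class fits had the section as block, and zone change was an interaction. The edgeR fits left 2 residual degrees of freedom for MASH against MAFL and for interactions, and 3 for zone and spot-class contrasts. Very small p-values therefore lean on variance borrowed across genes. With 2 sections against 2, a single value cannot go below p = 0.3333 in an exact two-sided test. The interactions of group with LAM and Thrsp spots were added after the values were seen. Members and lists were chosen with earlier results of these data known. Named were all members, up to 4 genes of the smallest p of each pathway list in a comparison, and the 3 genes most like each member; marker genes named beside them were chosen after their values were seen. Alternatives were DESeq2, library totals, no filter, left-out sections, replicate blocks, deeper spots and other rankings. Ranking genes were left out of the LAM and Thrsp tests. On simulated counts the fit of whole sections found 48 of 100 planted 2-fold changes and 91 of 100 planted 4-fold changes (16.3% of its calls were false), and the zone interaction found 70 and 91 (8% false). Within zones the fits found 49 and 93 pericentrally (11.8% false), 39 and 94 in the middle (19.4% false) and 56 and 99 periportally (20.5% false). The contrast of periportal with pericentral zone found 97 and 99 (12.1% false). For LAM-rich spots the fit found 83 and 97 (6.25% false), and for Thrsp-rich spots 97 and 100 (1.5% false). Python 3.11.15, numpy 2.4.6, pandas 2.3.3 and matplotlib 3.10.9 did the rest.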

Additional observations from a re-analysis of the deposited data

Results flagged for a closer look

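The zone ratio of Cidec differed between the groups by a test of the difference itself: the interaction of zone with group was -1.11 on the log2 scale, with periportal over pericentral log2 ratios of -1.45 and -1.38 in MASH sections and -0.26 and -0.26 in MAFL sections.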

How the results depend on the processing

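Over the members, 637 of 744 values under alternatives stayed on their side of the threshold, 22 lost the call and 84 gained one. A change of direction was counted only where either value passed, and 1 was found. Plin4 in Thrsp-rich spots was at log2 0.29 when spots were ranked without regard to zone, against -0.01. Values that passed in neither setting could change direction uncounted. Plin2 in whole sections, for example, was at log2 -0.25 and reached 0.17 with a section left out. Ranked within bins of total UMIs, the zone changes of Glul (0.0712) and Oat (0.0229) reversed. The causes were not tested. Counts are given as genes past the threshold, then members. For whole sections (62, 0) DESeq2 gave 586 and 5, no filter 1153 and 2, and leaving out 1 section 20 to 535 and 1 to 2. For the pericentral zone (71, 0) DESeq2 gave 265 and 5, no filter 999 and 4, library totals 1 member, and leaving out 1 section 23 to 1517 and 1 to 4. For the middle zone (54, 1) DESeq2 gave 237 and 4, library totals 30 and 0, no filter 964 and 5, and leaving out 1 section 25 to 359 and 1 to 2. For the periportal zone (160, 0) DESeq2 gave 330 and 3, no filter 1184 and 4, and leaving out 1 section 61 to 711 and 1 to 1. For the zone contrast (2378, 5) DESeq2 gave 1078 genes, and leaving out 1 section 1410 to 2028 and 5 to 6. For the zone change (49, 1) DESeq2 gave 24 genes, library totals 2 members, no filter 77 and 2, bins of total UMIs 5 genes, and leaving out 1 section 21 to 230 and 1 to 3. For LAM-rich spots (1245, 4) DESeq2 gave 316 genes, library totals 0 members, and leaving out 1 section 288 to 1101 and 0 to 4. For Thrsp-rich spots (64, 2) DESeq2 gave 5 and 0, and leaving out 1 section 11 to 115 and 0 to 3. For the change of the LAM-spot ratio (89) DESeq2 gave 20 genes, and for that of the Thrsp-spot ratio (11) it gave 0.

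Same-numbered sections deviated from their group means with a correlation of -0.19 over 8364 genes, and they share only a number. With the replicate block 0 genes passed in whole sections, 2 members in the pericentral zone, 29 genes and 2 members in the middle zone and 71 genes and 1 member in the periportal zone. With the crossed replicate block, chosen after seeing the data, 781, 464, 802 and 1276 genes passed in whole sections and in the pericentral, middle and periportal zone, with 4, 4, 5 and 5 members. With 1 section left in a group, that section is assumed to vary like the other group. Depth limits Cidea in MAFL sections, at 20 and 16 UMIs.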
